A study of Mus musculus with 4 samples.

Results

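The genes described here encode the subunits of the proteasome, its activators and a few partners: every gene symbol in the deposited gene table that starts with Psma, Psmb, Psmc, Psmd, Psme or Psmf followed by a digit, 46 of 27998 genes in all. Of these, 5 are the interferon-inducible members (Psmb8, Psmb9, Psmb10, Psme1 and Psme2) and 41 are the other members. The RNA came from single cells of pleural fluid of C57BL/6 mice that carried a malignant pleural effusion of LLC, the Lewis lung carcinoma line. All groups had the tumour and an injection into the pleural cavity on day 11, of PBS, of LNP-cGAMP at 1 µg (cGAMP, the cyclic dinucleotide that activates STING, carried by nanoparticles), of an anti-PD-L1 antibody at 30 µg, or of both agents (the combination). Cells were taken on day 13, 48 h later, pooled from 3 mice per group, and made into 1 library per group with 10x Genomics 3' chemistry, which counts RNA molecules per cell by unique molecular identifiers (UMIs). With 1 pooled library per treatment no difference has a replicate check, no test was possible and no p-value is given; the layout asks how the effusion's cells differ after each agent and after both.

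The proteasome is the protease that degrades ubiquitin-tagged proteins and supplies most of the peptides shown on MHC class I. Its core is a stack of rings of alpha and beta subunits, in which Psmb5, Psmb6 and Psmb7 carry the proteolytic sites. Interferon induces Psmb8, Psmb9 and Psmb10, which take the places of Psmb5, Psmb6 and Psmb7 in newly built cores and give the immunoproteasome, and it induces Psme1 and Psme2, which form the PA28 cap. Leukocytes, dendritic cells above all, are known for a high immunoproteasome content without added interferon. Psmc genes encode the ATPase base of the regulatory particle that unfolds substrates, and most Psmd genes its other subunits.

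Psmb9 and Psmb8 lie side by side in the MHC region of chromosome 17, interleaved with the peptide transporter genes. In GRCm38 (GENCODE annotation), Psmb9 spans chr17:34181987-34187764 on the minus strand, the transporter gene Tap1 spans chr17:34187553-34197225 on the plus strand, and Psmb8 spans chr17:34197721-34201454 on the plus strand. The windows from 250 bases before to 50 after the start (RefSeq, GRCm38.p6) of 3 interferon-inducible members are shown because Psmb9 had the highest ratio of the 5 with LNP-cGAMP in each class below, because Psmb8 is its neighbour, and because Psme1 is the only inducible member whose window holds the interferon-type motif searched. Capitals mark matches to GAAANNGAAA or TTCNNNGAA on either strand, written as read 5' to 3' on the gene's strand.
Psmb9 (chr17:34187281-34187580, minus strand): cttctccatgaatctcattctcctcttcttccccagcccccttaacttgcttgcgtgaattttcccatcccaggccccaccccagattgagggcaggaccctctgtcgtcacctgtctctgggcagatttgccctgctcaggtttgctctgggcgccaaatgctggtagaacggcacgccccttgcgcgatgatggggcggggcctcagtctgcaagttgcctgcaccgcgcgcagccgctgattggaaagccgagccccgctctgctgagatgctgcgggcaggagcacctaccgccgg
Psmb8 (chr17:34197945-34198244, plus strand): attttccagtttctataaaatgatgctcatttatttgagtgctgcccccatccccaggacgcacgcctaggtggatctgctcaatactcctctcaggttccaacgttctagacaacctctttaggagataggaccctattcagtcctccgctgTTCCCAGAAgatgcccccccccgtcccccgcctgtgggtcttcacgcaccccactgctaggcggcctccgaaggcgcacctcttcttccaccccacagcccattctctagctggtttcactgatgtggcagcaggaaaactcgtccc
Psme1 (chr14:55578244-55578543, plus strand): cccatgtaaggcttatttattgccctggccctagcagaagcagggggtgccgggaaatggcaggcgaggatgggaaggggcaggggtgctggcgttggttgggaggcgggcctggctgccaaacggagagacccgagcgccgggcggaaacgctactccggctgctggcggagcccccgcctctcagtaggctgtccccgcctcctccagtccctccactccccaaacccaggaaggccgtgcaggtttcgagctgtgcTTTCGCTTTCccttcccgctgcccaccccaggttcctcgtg
The Psmb9 window holds neither motif and shares 275 bases with the window of Tap1 on the opposite strand. RefSeq windows were found for 39 of the 46 members (42 windows). GAAANNGAAA occurs in 4 of these 42 and in 3.44% of all 32851 windows of that length, and TTCNNNGAA in 2 of 42 and in 8.30% of all. A match is only a match of letters, and a missing one says nothing about a factor.

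The 4 libraries held 68828158 to 88855120 UMIs, and 2838 cells were kept with PBS, 3842 with LNP-cGAMP, 3406 with anti-PD-L1 and 3552 with the combination. Clusters were named from marker genes and are called "-like"; no proteasome gene was used to make them. Neutrophil marker genes, for example, summed to between 137680 and 206385 CPM (UMIs of a gene in 1000000 UMIs of its class) in neutrophil-like cells and at most 685 CPM in monocyte/macrophage-like cells. Monocyte/macrophage-like cells numbered 1611 to 2535 per library, neutrophil-like cells 591 to 1083, T cell-like cells 83 to 241 and conventional dendritic cell-like (cDC-like) cells 57 to 133, and these 4 classes are compared between libraries. Each pair of libraries shared 19 to 25 cell barcodes, against 1.42 to 2.01 if barcodes had been drawn at random. The pools also differed in the sex of the mice: by Y-linked genes and Xist, monocyte/macrophage-like cells called male and female numbered 1434 and 0 in PBS, 2041 and 0 in LNP-cGAMP, 607 and 1247 in anti-PD-L1, and 462 and 1492 in the combination; the other cells carried both marks or neither. In the combination they numbered 7 and 89 in neutrophil-like, 6 and 106 in T cell-like, and 8 and 52 in cDC-like cells. With PBS they numbered 229 and 1, 55 and 0, and 112 and 0 in the same order. Among cells with a sex call, the combination against PBS therefore sets mostly female-called against male-called cells in these classes. Sex and mouse of origin cannot be told apart, and values within each sex are given below for the compared classes mainly where a direction or call of the inducible members turns. All intervals in brackets are exact 95% intervals that cover counting error only, not differences between mice.

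Among the immune classes the inducible genes made up most of the catalytic subunit RNA. Of the UMIs of the 6 catalytic genes, Psmb8, Psmb9 and Psmb10 held 89.1% in neutrophil-like cells of the PBS library (88.2 to 89.95), 79.1% in cDC-like, 72.0% in T cell-like, 70.5% in NK cell-like and 68.1% in monocyte/macrophage-like cells. Neutrophil-like cells stood first and cDC-like cells second of these 5 classes in all 4 libraries, while the order of T cell-like, NK cell-like and monocyte/macrophage-like cells changed between libraries and their shares lay within 68.1% and 72.4%. The neutrophil share came with few constitutive UMIs: the 41 other members summed to 2489 to 3304 CPM there, the lowest of the 5 classes in each library, against 8954 to 10050.5 CPM in monocyte/macrophage-like cells, the highest. In absolute level the 5 inducible members together stood highest in cDC-like cells in every library (4328, 5639, 5217 and 4893 CPM with PBS first, then LNP-cGAMP, then anti-PD-L1, then both, the order used throughout) and lowest of the 5 classes in NK cell-like cells (2141, 2862, 2648 and 2577 CPM). B cell-like cells had at least 20 cells only in the anti-PD-L1 and combination libraries, with shares of 77.0% (74.0 to 79.8) and 81.4% (77.4 to 84.9).

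**Figure D1:**
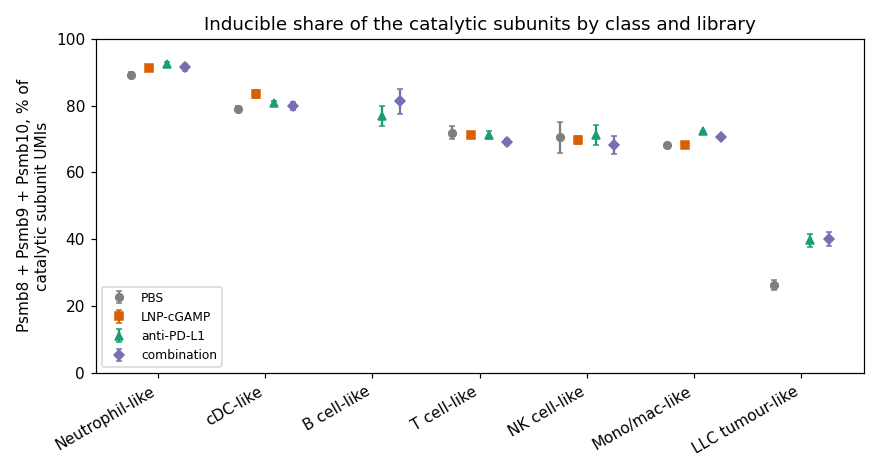
Share of catalytic subunit UMIs from Psmb8, Psmb9 and Psmb10 (%, y axis) in each class (x axis) and library (colour and symbol); bars are exact 95% intervals for counting error. Neutrophil-like cells lie between 89.1% and 92.3%, and LLC tumour-like cells between 26.4% and 40.1%.

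Psmb8, the inducible counterpart of Psmb5, had the highest CPM of all 46 members in each immune class and library with at least 20 cells. These are counts of 3' tags, 1 per molecule, so they carry no transcript length, although capture can still differ between genes. Among the 41 other members the highest mean CPM was that of Psma7, an alpha ring subunit, in monocyte/macrophage-like (644, 697, 710.1 and 690.2 CPM), neutrophil-like (249.6, 212, 246 and 205 CPM) and cDC-like cells (633, 649.5, 737 and 684 CPM). In T cell-like cells it was that of Psmb3, a non-catalytic beta subunit (397, 536, 493 and 532 CPM). The lowest mean CPM among the members that passed the filter on low values (at least 50 UMIs over the libraries and a mean of 20 CPM) was that of Psmd5, a base assembly chaperone, in monocyte/macrophage-like cells (24.3, 29.1, 23.7 and 24.1 CPM) and in cDC-like cells (25.5, 17.1, 18.1 and 20.9 CPM). It was that of Psme4, the PA200 activator, in neutrophil-like cells (30.0, 32.8, 22.2 and 19.5 CPM), and that of Psmc3ip, a recombination factor and no subunit, in T cell-like cells (24.2, 26.8, 20.3 and 29.1 CPM).

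Psma8, the testis alpha subunit, and Psmb11, the thymus beta subunit, passed the filter in no class. Psmb11 had 2 UMIs in monocyte/macrophage-like cells and 1 in T cell-like cells over all libraries, and none in neutrophil-like and cDC-like cells. Psma8 stood at 1.31 to 2.19 CPM in monocyte/macrophage-like cells and had no UMI in neutrophil-like cells. The filter also left out Psmc3ip in monocyte/macrophage-like, neutrophil-like and cDC-like cells, Psme2b in T cell-like cells, and Psmd1, Psmd5, Psmd9, Psme3 and Psmf1 in neutrophil-like cells, so 43 members passed in each class except neutrophil-like cells, where 38 did.

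LLC tumour-like cells had another balance. In the PBS library (38 cells) Psmb8 stood at 116 CPM, Psmb9 at 36.8 and Psmb10 at 153, whereas the 41 other members summed to 8583 CPM, a level near that of monocyte/macrophage-like cells. The inducible share of catalytic UMIs was 26.4% (24.8 to 28.0) with PBS, 39.7% (37.8 to 41.5) with anti-PD-L1 and 40.1% (38.1 to 42.2) with the combination. Psmb9 made up 9.51% of Psmb9 plus Psmb6 in the PBS library (7.80 to 11.4), 18.3% with anti-PD-L1 (15.7 to 21.1) and 17.6% with the combination (14.6 to 20.8). These cells were few (38, 37 and 28), the LNP-cGAMP library held 18, under the minimum of 20 for a level, and macrophage marker genes (12 genes) in them summed to 379 CPM with PBS, 909 with anti-PD-L1 and 748 with the combination. Near-empty barcodes of the same libraries carried the inducible members at 3149, 3372 and 3576 CPM, and the upper estimate of such free RNA in the tumour-like cells was 0.924%, 1.20% and 1.97%. Median UMIs of these cells were 70802, 29988 and 25602.5 and cycling cells made up 71.1%, 51.4% and 46.4%. The part of other cells' RNA, depth or cycling in the difference between libraries was not tested.

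Each treatment was then set against PBS, class by class; the comparisons share the PBS library, so their values stand side by side and are not independent. A gene counts as higher or lower when log2 of (CPM + 10) over (CPM + 10) amounts to 1.5-fold. In monocyte/macrophage-like cells all 5 inducible members stood above PBS in each treated library, and Psmb9 differed most. Psmb9, the inducible counterpart of Psmb6, stood at 285, 451, 381 and 403 CPM, lowest with PBS and highest with LNP-cGAMP, which is 1.58-fold PBS for LNP-cGAMP (1.55 to 1.61), 1.34-fold for anti-PD-L1 (1.31 to 1.36) and 1.41-fold for the combination (1.39 to 1.44). Psmb8 stood at 909.6, 1105, 1155 and 1069.9 CPM, highest with anti-PD-L1. Psmb10, the counterpart of Psmb7, had the same order of libraries in its extremes, with 460.4, 530.1, 578 and 532 CPM.

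The PA28 genes differed less in these cells. Psme1 stood at 546, 639.9, 644 and 629 CPM and Psme2 at 694, 769, 830.5 and 752 CPM, so that the highest fold over PBS was 1.18 for Psme1 (1.16 to 1.20) and 1.20 for Psme2 (1.18 to 1.21), both with anti-PD-L1. Psmb9 with LNP-cGAMP was the only one of the 5 past 1.5-fold in monocyte/macrophage-like cells, in a comparison where 15.3% of 5390 features tested were past it in either direction and 8.7% were higher. With anti-PD-L1, 0 of the 5 were past 1.5-fold beside 1.78% of features, and with the combination 0 beside 4.34%. Psmb9 with LNP-cGAMP stayed past 1.5-fold in 14 of 14 alternative settings, with log2 ratios of 0.59 to 0.95.

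**Figure D2:**
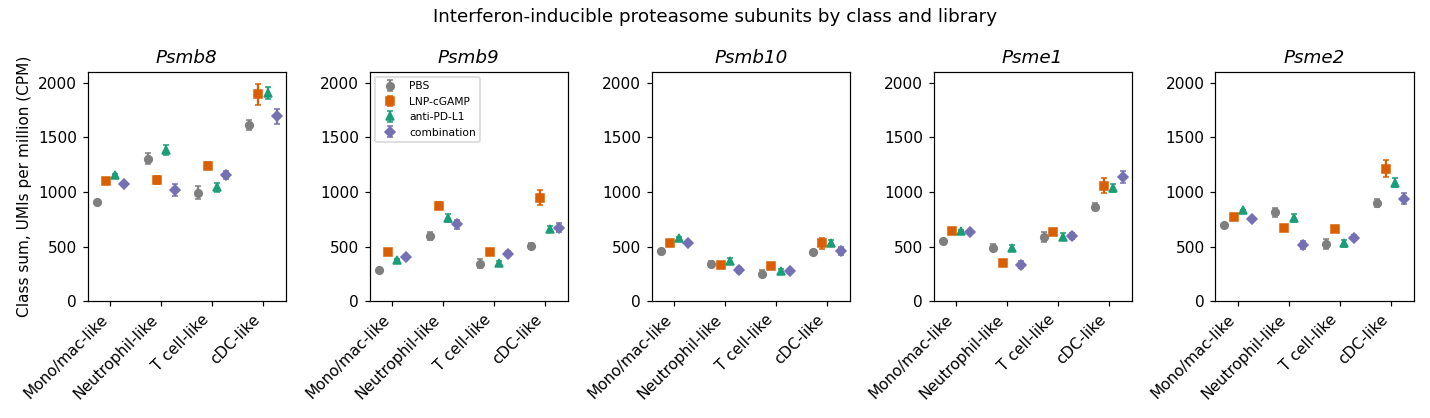
Level (CPM, y axis) of each interferon-inducible member, 1 panel per gene, in the 4 compared classes (x axis) and 4 libraries (colour and symbol); bars are exact 95% Poisson intervals. Psmb9 is lowest with PBS and highest with LNP-cGAMP in all 4 classes, from 285 to 451 CPM in monocyte/macrophage-like cells and from 506 to 949 CPM in cDC-like cells. In T cell-like cells PBS is not below anti-PD-L1 in 5 of 14 alternatives, and LNP-cGAMP is below the combination in 1 of 13.

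With anti-PD-L1 the inducible members of monocyte/macrophage-like cells stood apart from the rest of the proteasome in size, though under 1.5-fold. Their median log2 ratio was 0.32, with 5 of 5 above 0, while that of the 38 other members tested was 0.023, with 22 above 0, and that of all features was -0.005. All 6 ATPase base genes (Psmc1 to Psmc6) were below 0 with anti-PD-L1, with a median of -0.030. Psmd1, a scaffold subunit of the regulatory particle, was the lowest other member (132, 125, 116 and 110.2 CPM; log2 -0.17), and also the lowest with the combination (-0.24). In the combination the medians were 0.21 for the inducible and 0.054 for the other members, beside 0.0038 for all features.

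With LNP-cGAMP both sets of genes lay above all features in monocyte/macrophage-like cells. The median log2 ratio was 0.22 for the inducible members and 0.19 for the others (30 of 38 above 0), against 0.058 over all features. By role, the ATPase base had a median of 0.42 with 6 of 6 above 0, the constitutive catalytic genes 0.33 with 3 of 3, the alpha ring 0.12 with 5 of 7, and the non-ATPase subunits of the regulatory particle 0.020 with 7 of 11. Psmc1 stood at 231, 340.5, 226 and 286 CPM and Psmd4, a ubiquitin receptor of the regulatory particle, at 175, 264, 173 and 207 CPM, both highest with LNP-cGAMP. Psmd8, a lid subunit, was the lowest other member (584, 499.8, 551 and 506 CPM; log2 -0.22).

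The one other member past 1.5-fold in monocyte/macrophage-like cells was Psme2b, a retrocopy of Psme2 at chr11:48945354-48946190 (GRCm38, minus strand). It stood at 23.6, 41.1, 28.2 and 33.7 CPM, 1.74-fold PBS with LNP-cGAMP (1.63 to 1.87). Its span overlaps 9930111J21Rik1 and Gm12185 on the same strand and its sequence resembles Psme2, so its counts cannot be told apart from theirs with certainty. It was also the highest other member with anti-PD-L1 (log2 0.18) and with the combination (0.38), and the highest in neutrophil-like cells in all 3 comparisons with PBS, at 76.5, 107, 91.7 and 91.8 CPM.

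**Figure D3:**
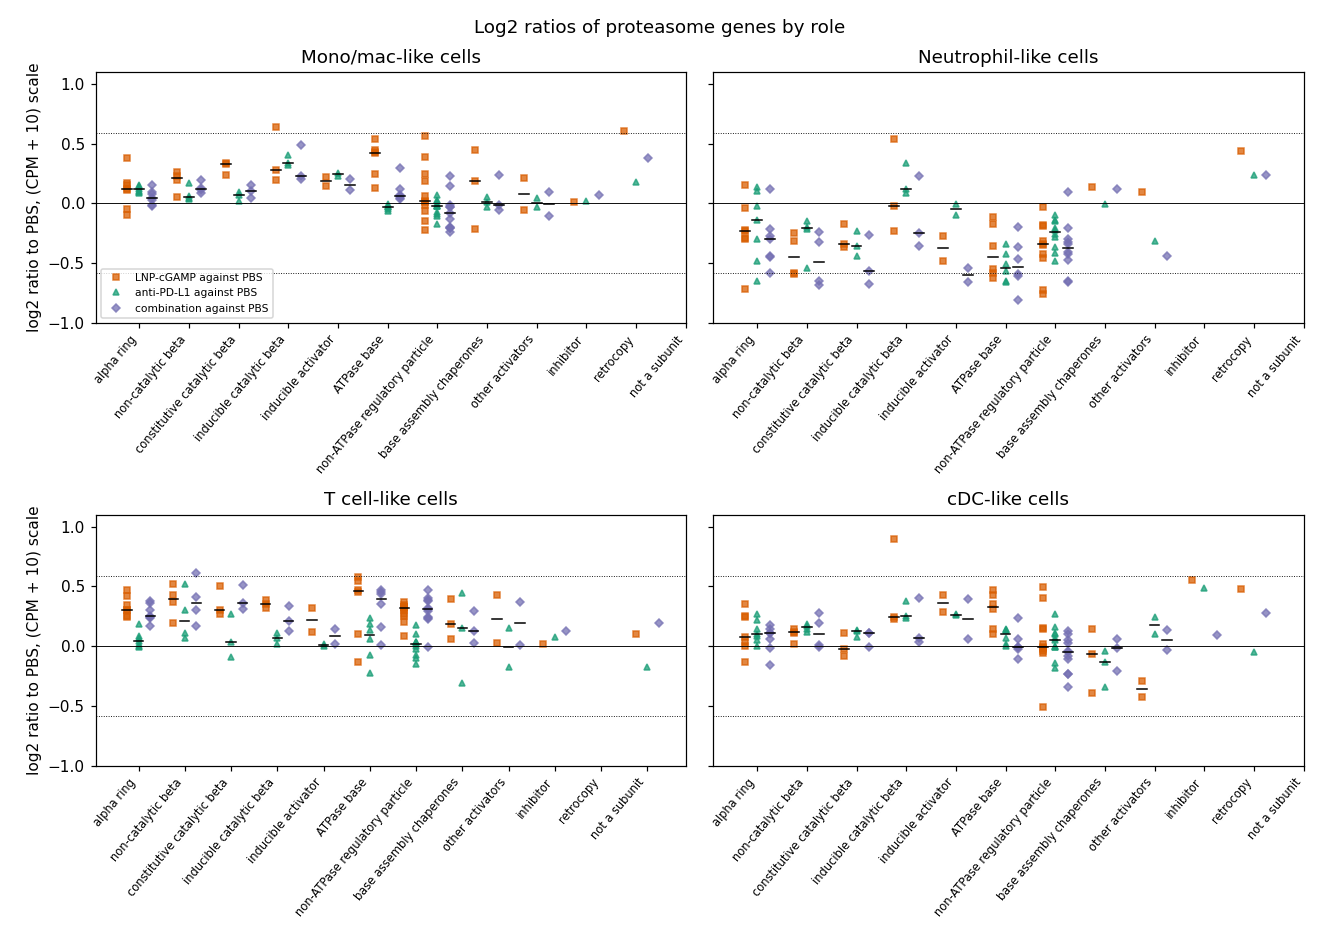
Log2 ratios to PBS of the members that passed the filter (y axis, (CPM + 10) scale), by role (x axis) and treatment (colour and symbol), 1 panel per class; black ticks are medians and dotted lines mark 1.5-fold. In neutrophil-like cells most roles lie below 0 when scaled by library totals (with TMM scaling Psmb8 and Psmb10 turn above 0 with LNP-cGAMP), and in T cell-like cells most lie above 0 with LNP-cGAMP and with the combination.

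The composition of the monocyte/macrophage-like class differed between the libraries beside these values. Clusters 0 (led by Cd163 and Ccl24), 2 (Lyve1) and 4 (Chil3, Ccr2 and Vcan) held most of its cells with PBS and anti-PD-L1, clusters 1 (Ccl12 and Ms4a7), 6 (Saa3 and Mmp8), 8 (Saa3 and Clec10a) and 11 (Fabp5 and Ccl8) most of them with LNP-cGAMP, and both sets were present with the combination. Median UMIs per cell were 34803, 20599.5, 32297 and 21909, cycling cells made up 19.4%, 1.31%, 19.5% and 12.4%, and mitochondrial genes summed to 33901, 11788, 32630.5 and 25036 CPM. The 12 cDC marker genes summed to 2422, 1313, 3795 and 2512 CPM in this class, highest with anti-PD-L1, and the 5 red blood cell genes to 287, 9.28, 100.2 and 51.1 CPM; their part in the values was not tested. Only cluster 4 had enough cells in every library (176 at the fewest). In it Psmb9 stood at 316, 618, 461 and 493 CPM and the 5 inducible members together at 3499.6, 4226, 4501 and 4163 CPM, so PBS was lowest here too.

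The inducible sum differed between clusters of one library. With LNP-cGAMP it was 4458 CPM in cluster 1, 3381 in cluster 11, 3071 in cluster 6 and 2086 in cluster 8, and the inducible share of catalytic UMIs was 72.0% in cluster 1 and 53.5% in cluster 8. In clusters 0 and 2 the sum was 3084 and 2707 CPM with PBS, 3671 and 3281 with anti-PD-L1, and 3593 and 3260.1 with the combination. Clusters 1 and 11 differed little between LNP-cGAMP and the combination (4458 and 4473 CPM, and 3381 and 3317 CPM), whereas cluster 6 stood at 3071 and 2218 CPM and cluster 8 at 2086 and 1855 CPM. Among single cells of at least 5000 UMIs, the 10th and 90th percentiles of the sum were 1999 and 4134 CPM with PBS, 1903 and 5226 with LNP-cGAMP, 2615 and 5148 with anti-PD-L1, and 1764 and 5146 with the combination.

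**Figure D4:**
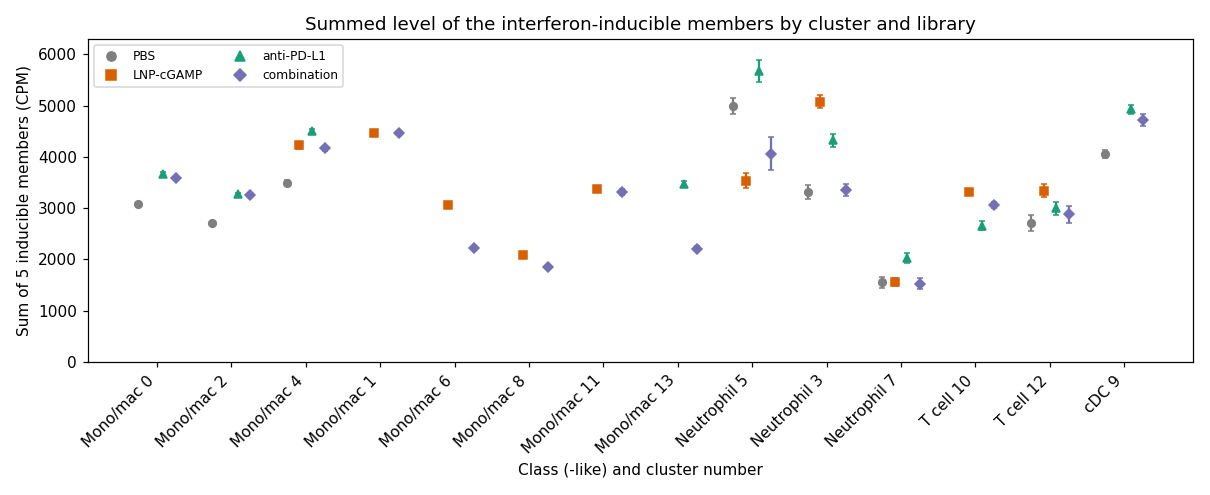
Summed level of the 5 interferon-inducible members (CPM, y axis) in each cluster (x axis) of the compared classes with enough cells, by library (colour and symbol); bars are exact 95% Poisson intervals. Monocyte/macrophage-like clusters range from 1855 CPM (cluster 8, combination) to 4501 CPM (cluster 4, anti-PD-L1).

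Within the combination library the inducible genes differed between monocyte/macrophage-like cells called male and called female. The sum of the 5 was 1936 CPM (1909 to 1963) in 462 male-called cells and 3663 CPM (3645 to 3680) in 1492 female-called cells, a ratio of 1.89, while the other members gave 7798 and 9536 CPM, a ratio of 1.22. Psmb9 stood at 193 and 437 CPM, Psmb8 at 610.1 and 1162 CPM, and Psme2 at 415 and 813 CPM, each higher in female-called cells. The inducible share of catalytic UMIs was 61.2% (60.5 to 61.9) and 72.0% (71.7 to 72.2). In the anti-PD-L1 library, also of both sexes, the sums were 3378 CPM (3354 to 3403) and 3688 CPM (3670.0 to 3706), a ratio of 1.09. The combination library also held 87 such cells with both marks, at 2818 CPM and a median of 38126 UMIs, and 494 with neither, at 3879 CPM.

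**Figure D5:**
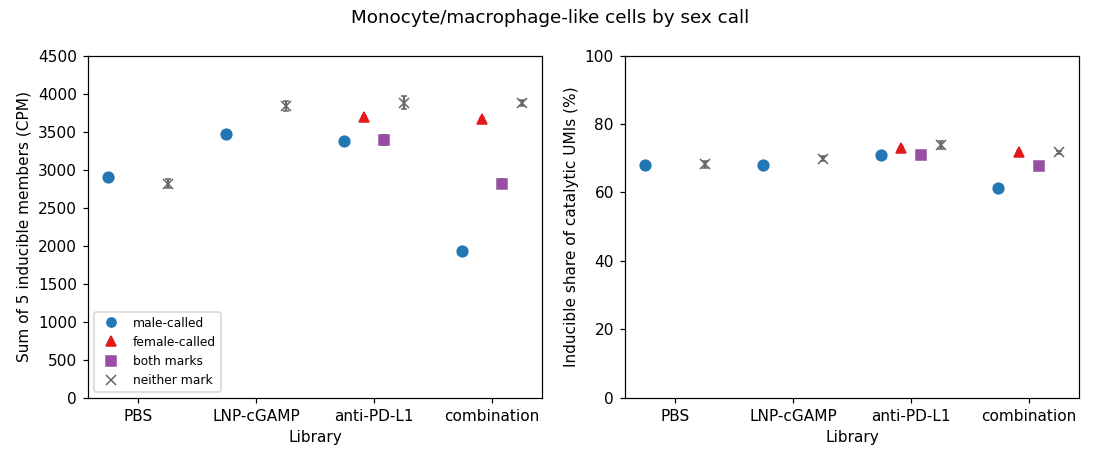
Summed level of the 5 interferon-inducible members (left, CPM) and inducible share of catalytic UMIs (right, %) in monocyte/macrophage-like cells by library (x axis) and sex call (colour and symbol); bars are exact 95% intervals. Male-called cells of the combination library lie at 1936 CPM and 61.2%, below all other points of both panels.

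The male-called cells of the combination differed from its female-called cells in more than these genes. They lay in clusters 6 (242 cells), 8 (142) and 13 (61), and female-called cells in clusters 1 (482), 2 (364), 0 (245), 4 (241) and 11 (113). Saa3, an acute-phase gene, stood at 20802 CPM in male-called and 1559 CPM in female-called cells. Cluster 13 (Alox15 and Prg4) held both, and the inducible sum there was 1390.3 CPM in 61 male-called and 3105 CPM in 31 female-called cells. Within that cluster the male-called and female-called cells also differed in Saa3 (29313 and 6112 CPM), cycling (14.8% and 48.4%) and median UMIs (28356 and 44891). Counted on male-called cells alone, all 5 inducible members stood below PBS in the combination, with log2 ratios of -0.57 (Psmb8), -0.55 (Psmb9), -0.49 (Psmb10), -0.46 (Psme1) and -0.73 (Psme2), which is the opposite direction to the whole class; the PBS cells with 1 mark only were all male-called. Male-called cells with LNP-cGAMP (log2 0.13 to 0.62) and with anti-PD-L1 (0.19 to 0.29) remained above PBS for all 5.

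The combination was also set against each agent alone. In monocyte/macrophage-like cells the 5 inducible members had log2 ratios of -0.16 to 0.0055 against LNP-cGAMP and -0.14 to 0.08 against anti-PD-L1, with none past 1.5-fold, beside 4.71% and 2.21% of features past it. Counted on male-called cells alone, all 5 were lower in the combination, with log2 ratios of -0.83 (Psmb8), -1.17 (Psmb9), -0.68 (Psmb10), -0.68 (Psme1) and -0.86 (Psme2) against LNP-cGAMP, the sum being 0.56-fold. Against anti-PD-L1 they were -0.78, -0.75, -0.78, -0.67 and -0.92 in male-called cells, and between -0.058 and 0.10 in female-called cells. In neutrophil-like cells they ran from -0.38 to -0.06 against LNP-cGAMP and from -0.55 to -0.11 against anti-PD-L1, in T cell-like cells from -0.22 to -0.05 and from 0.015 to 0.32, and in cDC-like cells from -0.49 to 0.10 and from -0.22 to 0.13. On female-called cells alone, against anti-PD-L1, Psme1 in T cell-like cells turned from 0.015 to -0.056. Psmb9 in cDC-like cells, above 0 over the class, turned to -0.033 there, and Psme1 in neutrophil-like cells came to -0.65 (-0.54 over the class). Over the whole classes, 6.56% and 6.44% of features were past 1.5-fold in neutrophil-like cells, 2.45% and 8.12% in T cell-like cells, and 14.2% and 4.23% in cDC-like cells. The share of features past 1.5-fold was not counted for male-called or female-called cells alone, so ratios within a sex stand without it. Psmb9 stood lower with the combination than with LNP-cGAMP over each of the 4 whole classes, in monocyte/macrophage-like cells at 403 against 451 CPM and in cDC-like cells at 673 against 949 CPM. In T cell-like cells it stood at 435 against 452 CPM, and the order turned in cluster 12 (416 against 390 CPM).

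In cDC-like cells, the class that primes T cells, Psmb9 showed its largest fold over whole classes. It stood at 506, 949, 659.5 and 673 CPM, 1.88-fold PBS with LNP-cGAMP (1.72 to 2.04), 1.30-fold with anti-PD-L1 (1.22 to 1.39) and 1.33-fold with the combination (1.22 to 1.44). That order of classes depended on the clusters. In 1 shared cluster, log2 ratios of Psmb9 with LNP-cGAMP were 1.05 in neutrophil-like and 0.95 in monocyte/macrophage-like cells. In cDC-like cells no alternative was above 0.92. On male-called cells alone, Psmb9 with anti-PD-L1 came to log2 0.052 (35 cells against 112 with PBS), against 0.38 over the class. With LNP-cGAMP it stood at 0.81 in male-called cells (46 against 112). The combination held 8 male-called cDC-like cells, too few for such a value. Psmb8 stood at 1614, 1893, 1906 and 1692 CPM and Psmb10 at 446, 528, 533 and 458 CPM, neither past 1.5-fold. Psme1 stood at 863, 1057, 1034 and 1135 CPM, highest with the combination, and Psme2 at 898, 1211, 1084 and 936 CPM, highest with LNP-cGAMP (1.35-fold, 1.25 to 1.45). All 5 stood above PBS in each comparison, though Psme2 with the combination turned in 3 of 12 alternatives (to -0.035 without cycling cells) and Psmb10 and Psme2 with anti-PD-L1 turned with per-cell marker gates (-0.12 and -0.028). Psmb9 with LNP-cGAMP was the one past 1.5-fold, beside 20.4% of 5315 features either way and 9.65% higher; with anti-PD-L1 none was, beside 1.75%, and with the combination none, beside 5.53%.

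The other members of cDC-like cells held close to PBS. Their medians were 0.11, 0.10 and 0.02 for the 3 treatments, against 0.29, 0.26 and 0.07 for the inducible members and -0.001, -0.003 and -0.02 for all features, and none of 38 was past 1.5-fold. Psmf1, the PI31 inhibitor, was the highest with LNP-cGAMP and anti-PD-L1 (24.3, 40.4, 38.1 and 26.6 CPM; log2 0.56 and 0.49), and Psmb4, a non-catalytic beta subunit, with the combination (263, 285, 298 and 322 CPM; log2 0.28). Psmd1 was the lowest with LNP-cGAMP and with the combination (116, 78.3, 101 and 89.2 CPM; log2 -0.51 and -0.34), and Psmd5 with anti-PD-L1 (log2 -0.34). Psmf1 rested on 77 UMIs with PBS (19.2 to 30.3 CPM), 33 with LNP-cGAMP (27.8 to 56.7) and 105 with anti-PD-L1 (31.1 to 46.1). Its intervals for PBS and LNP-cGAMP overlapped. Those of Psmd5 for PBS (81 UMIs, 20.3 to 31.7 CPM) and anti-PD-L1 (50 UMIs, 13.5 to 23.9) overlapped too. The class joined cluster 9 (119, 48, 112 and 70 cells) and cluster 18, led by Ccr7 and Fscn1 (14, 9, 14 and 8 cells). In male-called cells of cluster 9 the inducible sum was 4096 CPM with PBS (100 cells) and 4954 CPM with LNP-cGAMP (37 cells). Per-cell marker gates kept only 23, 9, 24 and 10 cells. The class held 57 cells with LNP-cGAMP, cycling cells made up 22.6%, 1.75%, 15.9% and 8.97%, and mitochondrial genes summed to 30676, 12901, 29729 and 25832 CPM. The part of cluster mix, cycling and mitochondrial RNA in the values was not tested beyond the settings given at the end.

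In neutrophil-like cells Psmb9 was the one inducible member that stood above PBS with every treatment, scaled by library totals. It stood at 598, 876, 758 and 703 CPM, lowest with PBS, 1.46-fold PBS with LNP-cGAMP (1.37 to 1.57; log2 0.54, short of 1.5-fold on that scale). Psmb8 stood at 1305, 1109.5, 1384 and 1017 CPM, Psme1 at 489, 348, 489 and 333 CPM, and Psme2 at 812, 671, 758 and 513 CPM. These 3 stood below PBS with LNP-cGAMP (Psmb8 not under TMM scaling) and with the combination, and Psme2 with the combination was past 1.5-fold (1.58-fold lower, 1.45 to 1.73), beside 20.6% of 4022 features either way and 17% lower. Psmb10 stood at 338, 333, 370.0 and 283 CPM, also short of 1.5-fold. On male-called cells alone (229 with PBS and 78 with anti-PD-L1) Psmb8 and Psmb10 with anti-PD-L1 turned below PBS (log2 -0.22 and -0.14), and Psmb9 stood at 0.17.

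The other members of neutrophil-like cells were mostly below PBS, as features in general were. Their median log2 ratio was -0.31 with LNP-cGAMP, -0.28 with anti-PD-L1 and -0.41 with the combination, against -0.17, -0.16 and -0.26 over all features. With LNP-cGAMP 5 of 33 were lower past 1.5-fold beside 12.4% of features lower (17.5% either way), led by Psmd11 (68.2, 36.3, 51.0 and 39.7 CPM), Psmd3 (49.1, 25.7, 40.8 and 32.6 CPM), both lid subunits, and the alpha subunit Psma4 (98.2, 56.0, 58.9 and 69.7 CPM). With anti-PD-L1 3 were lower beside 9.57% (11.9% either way): Psma4 and the ATPase genes Psmc1 (47.0, 34.5, 26.1 and 39.7 CPM) and Psmc5 (50.1, 30.3, 28.4 and 29.95 CPM). With the combination 8 were lower beside 17% (20.6% either way), led by the ATPase gene Psmc4 (64.6, 38.4, 40.3 and 32.6 CPM), Psmb4 (141, 90.2, 126 and 84.0 CPM) and Psmb7 (59.9, 45.5, 44.8 and 33.9 CPM).

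These directions depended on the scaling and on the mix of neutrophil clusters. With TMM, a scaling by the trimmed mean of ratios between libraries, whose factor was 1.16 for PBS and 0.918 to 0.975 for the others, the counts of other members lower were 1, 0 and 0, Psmb8 with LNP-cGAMP turned to 0.03 and Psmb9 came to 0.80, past 1.5-fold, Psmb10 stood above PBS with all 3 treatments (0.23, 0.37 and 0.08) and Psme2 with the combination came to -0.32, no longer past it. In cluster 3, the one with the most cells in its smallest library, the inducible sum was 3313, 5078, 4322 and 3355 CPM and Psmb9 667, 1388, 905 and 849 CPM, and with LNP-cGAMP all 5 members were above PBS (log2 0.03 to 1.05). In cluster 5 (Mmp9 and Il1r2) the sum was 4989, 3536, 5669 and 4059 CPM, and in cluster 7 (Retnlg) 1555, 1561, 2029 and 1528 CPM. Cluster 5 held 400, 332, 237 and 72 cells and cluster 3 held 280, 433, 408 and 353. Red blood cell genes summed to 1620 CPM in neutrophil-like cells with PBS and 1.95 to 8.11 CPM in the other libraries, and the class had only 2092 to 2511 median UMIs per cell; macrophage marker genes (12 genes) summed to 1734, 1084, 632 and 1317 CPM, highest with PBS. The part of that RNA in the values was not tested.

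In T cell-like cells inducible and other members had like median ratios with LNP-cGAMP over the whole class. Psmb8 stood at 995, 1241, 1043 and 1154 CPM, Psmb9 at 343, 452, 347 and 435 CPM, and Psmb10 at 252, 325, 272 and 277 CPM, each lowest with PBS and highest with LNP-cGAMP. On male-called cells alone (55 with PBS and 28 with anti-PD-L1) Psmb9 and Psmb10 with anti-PD-L1 turned below PBS (log2 -0.33 and -0.18), as did Psme1 (-0.23) and Psme2 (-0.025). Psme2 was also lowest with PBS and highest with LNP-cGAMP in the whole class (524, 657, 530.2 and 581 CPM), and Psme1 ranged from 586 to 638 CPM (586, 638, 589 and 595). The folds with LNP-cGAMP were 1.32 for Psmb9 (1.18 to 1.48), 1.29 for Psmb10 (1.13 to 1.48), 1.25 for Psmb8 (1.17 to 1.33) and 1.09 for Psme1 (1.00 to 1.19), and none of the 5 was past 1.5-fold in any comparison, beside 11.7%, 4.1% and 14% of 5556 features.

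The median log2 ratio in T cell-like cells was 0.32 for the inducible and 0.31 for the other members with LNP-cGAMP (37 of 38 above 0; 0.067 over all features), 0.017 and 0.042 with anti-PD-L1, and 0.15 and 0.30 with the combination (37 of 38 above 0; 0.030 over all features). The ATPase base had the highest role median with LNP-cGAMP among roles of 3 or more genes, 0.46; Psmc1 was its highest gene (105, 162, 126 and 147 CPM; log2 0.58) and Psmc4 its lowest (165.5, 151, 141 and 166.5 CPM; -0.13). Psmb4 was the highest other member with anti-PD-L1 and the one past 1.5-fold with the combination (198, 288, 288 and 308 CPM; 1.56-fold, 1.34 to 1.82), beside 5.58% of features higher. The lowest were Psmd5 with anti-PD-L1 (36.3, 38.3, 27.4 and 37.2 CPM) and Psmd8 with the combination (262 and 262 CPM with PBS and the combination; log2 -0.004). Cycling cells made up 16.9%, 61.0%, 27.9% and 61.5% of the class, median UMIs per cell were 6012, 16036, 7592 and 17477, and cDC marker genes (12 genes, MHC class II among them) summed to 7286 CPM with PBS and 1008 to 2718 CPM in the others. In cluster 12 (Il7r and Tcf7), the one given for all libraries, the inducible sum was 2714, 3336, 2994 and 2881 CPM and the other members summed to 5364, 5992, 5781 and 5296 CPM, with a median log2 ratio of the others of 0.070 with LNP-cGAMP and -0.11 with the combination. Psmb10 and Psme2 with the combination turned below PBS there (log2 -0.36 and -0.24), and Psmb9 was highest with the combination (310, 390, 350 and 416 CPM). In cluster 10 (Gzmb and Cd8a), not given for PBS, the other members summed to 8844, 7859.6 and 8719 CPM.

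The share of Psmb9 beside Psmb8, its neighbour on chromosome 17, was highest with LNP-cGAMP in 3 of the 4 classes. A share of 2 genes within a class needs no library scaling, and these shares describe single pools. Psmb9 made up 23.9%, 29.0%, 24.8% and 27.4% of Psmb9 plus Psmb8 in monocyte/macrophage-like cells, 23.9%, 33.4%, 25.7% and 28.4% in cDC-like cells, and 31.4%, 44.1%, 35.4% and 40.9% in neutrophil-like cells. In T cell-like cells the shares were 25.6%, 26.7%, 24.97% and 27.4%. Counting error alone gave intervals of 23.5 to 24.2 (PBS) and 28.7 to 29.3 (LNP-cGAMP) in monocyte/macrophage-like cells and of 23.3 to 28.1 and 25.8 to 27.6 in T cell-like cells; the spread between pools of mice was not measured. Psmb9 overlaps Tap1 on the opposite strand and Psmb8 overlaps Gm20496 on the opposite strand. Psmb9 and Tap1 overlap only at chr17:34187553-34187764, at the start of each gene, while the counts are of 3' tags. Whether the counting used strand is not given in the sources used here, so reads in such an overlap may not be told apart.

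Against their constitutive counterparts the inducible subunits differed unequally. In monocyte/macrophage-like cells Psmb9 made up 50.8%, 56.2%, 57.6% and 56.6% of Psmb9 plus Psmb6, Psmb8 made up 71.5%, 70.7%, 75.2% and 74.0% of Psmb8 plus Psmb5, and Psmb10 made up 77.2%, 76.6%, 79.9% and 78.4% of Psmb10 plus Psmb7. With LNP-cGAMP, therefore, the share was above PBS for Psmb9 and below it for Psmb8 and Psmb10, and the share over all 6 genes was 68.1% with PBS (67.9 to 68.3) and 68.2% with LNP-cGAMP (68.0 to 68.5). In cluster 4, present in both, it was 73.5% (72.8 to 74.3) and 76.3% (75.5 to 77.1). With anti-PD-L1 all 3 pairs and the whole (72.4%, 72.2 to 72.6) were above PBS. In cDC-like cells Psmb9 made up 64.9%, 78.6%, 68.6% and 69.5% of its pair and the whole was 79.1%, 83.5%, 80.7% and 79.9%. In neutrophil-like cells the Psmb9 pair stood at 88.2%, 93.6%, 91.9% and 91.5%. Psme1 and Psme2 made up 94.5% to 95.4% of the UMIs of Psme1, Psme2 and Psme3, the PA28-gamma activator, in monocyte/macrophage-like cells.

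Genes that act before and after the proteasome were taken as a separate list. Of 20 assembly and associated factors, 17 passed the filter in monocyte/macrophage-like cells and none was past 1.5-fold in a comparison with PBS. Of the 5 genes of class I peptide loading 3 were higher with LNP-cGAMP there, beside 8.7% of features higher: the transporter genes Tap2 (105 and 187 CPM, 1.78-fold) and Tap1 (230.1 and 374 CPM, 1.63-fold), and B2m, the class I light chain. In cDC-like cells the interferon factor gene Irf1 (1.73-fold), Tap2 (1.63-fold) and B2m (1.60-fold) were higher with LNP-cGAMP, beside 9.65% of features higher.

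In neutrophil-like cells B2m was higher with LNP-cGAMP (2302 and 3593 CPM, 1.56-fold) while Tap2 was lower with the combination (375 and 227 CPM, 0.61-fold), in comparisons with 17.5% and 20.6% of features past 1.5-fold either way. These are values scaled by library totals. The TMM factor in this class was 1.16 for PBS and 0.918 for the combination, and whether Tap2 stays past 1.5-fold with it was not tested. In T cell-like cells Erap1, which trims peptides for class I, was higher with LNP-cGAMP (31.3 and 54.8 CPM, 1.75-fold), and Usp14, a deubiquitinase of the regulatory particle, with the combination (45.4 and 78.0 CPM, 1.72-fold). Irf1 was lower in T cell-like cells with the combination (186 and 94.5 CPM, 0.51-fold). The class held 990961 UMIs with PBS, so the PBS levels of Erap1 and Usp14 rest on few UMIs. Cluster 10 held 17 of its 83 cells with PBS, 159 of 241 with LNP-cGAMP and 109 of 161 with the combination. The part of this cluster mix in the values was not tested. Of all features in T cell-like cells 11.7% were past 1.5-fold with LNP-cGAMP and 14% with the combination.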

How the data were processed

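Per the file headers, Cell Ranger 3.0.2 made the deposited matrices, which hold whole-number UMI counts that were not normalized and keep near-empty barcodes; the build was mm10, per the submitters' processing notes. The labels name both version 2 and version 3 of the 3' kit, and these were not reconciled. Barcodes were kept at or above the density minimum of log10 UMI between 300 and 5000 UMIs (861 to 989), with at least 200 genes and at most 10% mitochondrial UMIs. Doublets were not called and remain. Cells of all libraries were clustered with scanpy 1.11.5 (2000 variable genes without the members, other pathway, interferon-response and sex-linked genes, 30 components, 15 neighbours, Leiden at resolution 1). Clusters were named from markers; those whose leading genes did not bear a name stayed unnamed (30 to 102 cells a library). The per-cell marker gates are an alternative.

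Counts were summed per class and library and divided by the total (CPM). Classes with at least 50 cells in each library were compared, levels given from 20 cells, and features tested from 50 UMIs summed over libraries and a mean of 20 CPM. Log2 ratios used a pseudocount of 10 CPM, folds are plain CPM ratios, and 1.5-fold counts as a call. Intervals are exact 95% Poisson, conditional binomial (folds) or Clopper-Pearson (shares) and cover counting error only. Other classes' markers and free RNA from near-empty barcodes were measured beside each class. A cell was called male with Y-linked UMIs and no Xist, female with Xist and none of them. Named genes are the 5 inducible members, the highest and lowest other member per class and treatment, those past 1.5-fold (the 3 farthest where more), the highest and lowest levels, and up to 3 pathway genes per class; Psmc1 and Psmd4 in monocyte/macrophage-like cells were chosen after their values were seen. Members and lists were chosen with earlier results of these data known. Paaf1 of the pathway list was not found. Some genes of that list are not reported here. The simulated-data test of the script stands apart from the values. edgeR 4.0.16 gave TMM factors for an alternative.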

Additional observations from a re-analysis of the deposited data

Results flagged for a closer look

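The results of 2 genes differed in direction between cells called male and called female in the same comparison, monocyte/macrophage-like cells of the combination against anti-PD-L1. The log2 ratio of Psmb9 was -0.75 in male-called and 0.10 in female-called cells. That of Psme1 was -0.67 in male-called and 0.059 in female-called cells. The difference was not tested, since each library is 1 pool, and sex and mouse of origin cannot be told apart. Over all 5 inducible members the combination stood at 0.57-fold anti-PD-L1 in male-called cells and at 0.99-fold in female-called cells.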

How the results depend on the processing

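Each library is the only one of its treatment, so no replicate could be left out. No paired analysis was possible because each group is 1 library and the groups share only 1 replicate number. Of 524 counts of called members under an alternative 456 stayed within 1.5 times the reported count and 68 did not, and of 1572 other values (ratios and medians) 1368 stayed and 204 moved. A ratio stayed if it moved by no more than its counting error, a median if within a fixed limit. Part of this was fixed in advance. Many reported counts were 0, dropping the filter changes no ratio, and without cycling cells 925 of 926 neutrophil-like cells remained with anti-PD-L1. The totals therefore do not measure robustness. No ratio of an inducible member past 1.5-fold changed sign, while uncalled ratios of these members did. Few ratios were past it: Psmb9 with LNP-cGAMP in monocyte/macrophage-like and cDC-like cells, and Psme2 with the combination in neutrophil-like cells. For that Psme2 ratio male-called cells were too few to run. The other members were followed only as counts and medians, so the sign of each was not checked. The pathway genes were not followed under any alternative. The alternatives of cells of at least 5000 UMIs and of shared barcodes left out were chosen after seeing the data. Not run, for want of cells, were male-called cells for the combination outside monocyte/macrophage-like cells, neutrophil-like cells of at least 5000 UMIs, and marker gates for cDC-like cells other than anti-PD-L1 against PBS.

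Inducible members higher than PBS with LNP-cGAMP in neutrophil-like cells (0 as reported) numbered 1 with TMM scaling, 1 with cells weighted equally and 2 in 1 shared cluster. With the combination in monocyte/macrophage-like cells (0 as reported) 1 was higher in 1 shared cluster. Unless a cause is named, the cause of these and the following differences was not tested.

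The other counts are of other members past 1.5-fold. In monocyte/macrophage-like cells with LNP-cGAMP against PBS (1 as reported) there were 0 with TMM and in 1 shared cluster, 2 with a pseudocount of 1 CPM and 3 with cells weighted equally. In male-called cells the combination (0 as reported) gave 2 against PBS, 4 against LNP-cGAMP and 2 against anti-PD-L1.

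In neutrophil-like cells the counts against PBS were 5 (LNP-cGAMP), 3 (anti-PD-L1) and 8 (combination) as reported. In that order they were 1, 0 and 0 with TMM, and 9, 7 and 25 with free RNA subtracted. A pseudocount of 1 CPM gave 8 and 5 for the single agents, male-called cells 6 for anti-PD-L1, and marker gates 1 for anti-PD-L1 and 4 for both agents. The combination against LNP-cGAMP (0 as reported) gave 1 with a pseudocount of 1 CPM, without the filter on low values, with marker gates and in 1 shared cluster, and 8 with free RNA subtracted. Against anti-PD-L1 (1 as reported) it gave 2 with a pseudocount of 1 CPM, 3 with cells weighted equally and 6 with free RNA subtracted.

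In T cell-like cells with LNP-cGAMP against PBS (0 as reported) there were 1 at Leiden resolution 2 and with a mitochondrial share to 20%, 2 with TMM, a pseudocount of 1 CPM, marker gates and 1 shared cluster, 3 with free RNA subtracted and with cycling cells left out, and 7 with cells weighted equally. With anti-PD-L1 (0 as reported) there were 1 with cells weighted equally, marker gates and cycling cells left out, and 2 in male-called cells and in 1 shared cluster. With the combination (1 as reported) there were 0 at Leiden resolutions 0.5 and 2 and in cells of at least 5000 UMIs, 2 with TMM, 1 shared cluster and cycling cells left out, 3 with marker gates and 5 with cells weighted equally. The combination against LNP-cGAMP (0 as reported) gave 4 in 1 shared cluster and 3 with cycling cells left out. Against anti-PD-L1 (0 as reported) it gave 1 with TMM, a pseudocount of 1 CPM, Leiden resolution 0.5 and cycling cells left out, 3 with cells weighted equally and 4 in 1 shared cluster.

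In cDC-like cells with LNP-cGAMP against PBS (0 as reported) there were 1 at Leiden resolutions 0.5 and 2, without the filter and in 1 shared cluster, and 2 with a pseudocount of 1 CPM and with cells weighted equally. With anti-PD-L1 (0 as reported) there were 1 with a pseudocount of 1 CPM and 2 in male-called cells.

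All 5 inducible members stood above PBS in monocyte/macrophage-like cells in 14 of 14 alternatives with LNP-cGAMP, 14 of 14 with anti-PD-L1 and 13 of 14 with the combination, the exception being male-called cells. In neutrophil-like cells they did so in 1 of 13 with LNP-cGAMP, 2 of 13 with anti-PD-L1 and 0 of 12 with the combination. In T cell-like cells they did so in 14 of 14, 7 of 14 and 10 of 13, and in cDC-like cells in 13 of 13, 13 of 14 and 9 of 12. Psmb9 with LNP-cGAMP stood above PBS in each alternative, with log2 ratios of 0.79 to 0.92 in cDC-like, 0.31 to 1.05 in neutrophil-like and 0.29 to 0.52 in T cell-like cells. Depth was lowest in neutrophil-like cells, with 2092 to 2511 median UMIs each, and cells were fewest in the B cell-like, NK cell-like and LLC tumour-like classes.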
